A study of Mus musculus with 4 samples.

Results

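The genes of epidermal kallikreins and desquamation proteases were followed through the open chromatin of epidermal keratinocytes, the cells that build the skin's outer layer. The list held 10 genes: 7 kallikreins (Klk5, Klk6, Klk7, Klk8, Klk10, Klk11 and Klk13), the membrane protease gene St14, the inhibitor gene Spink5 and the caspase gene Casp14. Peaks of the 4 libraries were merged wherever they overlapped by at least 1 bp, and the merged regions that overlapped one of these genes or the 10 kb on either side of it were kept. This gave 45 of the 82641 merged regions. ATAC-seq, in which the Tn5 transposase inserts adapters into accessible DNA, had been performed on sorted skin cells from 2 wild-type (WT) and 2 Mapk8-KO samples to ask how loss of the kinase JNK1, the product of Mapk8, alters chromatin in inflamed skin.

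Both groups had received a cream with 5% imiquimod (Aldara), which inflames the skin, for 8 days. According to the methods of the study, the mice were females of 8 to 12 weeks. The knockout was K14Cre Mapk8 fl/fl on a C57BL/6 background, in which a keratin 14 promoter drives the Cre recombinase in basal keratinocytes and their progeny. WT samples carry only the genotype label Wild Type. Littermates are named as controls, but whether the WT mice carried floxed alleles or a Cre is not stated, so effects of Cre or of the floxed allele and of the deletion cannot be told apart. Cells were EpCam+ and CD49f-high, a gate for basal keratinocytes, whereas kallikreins are best known from the granular layer above. The study describes the 2 samples of each group as independent, without saying how many animals each came from, so p-values measure the spread between these samples, which may be partly technical.

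Kallikreins are secreted serine proteases that are made as inactive precursors and activate one another as keratinocytes reach the surface. They cut the desmosomal proteins that hold corneocytes together, and the skin then sheds its outermost cells, a process called desquamation. Matriptase, encoded by St14, is a membrane-bound protease that acts upstream in protease cascades of the epidermis, LEKTI, encoded by Spink5, blocks several kallikreins, and caspase 14 takes part in breaking down filaggrin into moisturising amino acids.

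The sequences at the regions that the results below turn on are shown first, read from the GRCm38.p6 (mm10) plus strand. The motif of AP-1, the family of FOS and JUN factors to which the JNK target JUN belongs, was searched as TGACTCA on both strands, so that TGAGTCA is its other strand. Of the 45 regions, 12 held it within 100 bp of the strongest summit (26.7%), against 23.7% of all regions. Among regions no more than 2 kb from an annotated transcription start site the shares were 5 of 23 (21.7%) and 12.0%. Among the others they were 7 of 22 (31.8%) and 28.0%. Each of the first 7 lines shows an AP-1 match, in capitals, with 17 bases on either side. They were chosen as matches at kallikrein and Casp14 regions described further on and at the St14 region that passed the test between genotypes. Lines are named by a listed gene. The summit at the Klk8 line lay nearest to the start of Klk9, a kallikrein outside the list.
Klk13, 9.2 kb upstream, chr7:43703364-43703404: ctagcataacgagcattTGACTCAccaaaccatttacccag
Klk10, 0.6 kb upstream, chr7:43780383-43780423: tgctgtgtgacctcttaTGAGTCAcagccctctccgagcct
Klk8, 6.4 kb upstream, chr7:43791133-43791173: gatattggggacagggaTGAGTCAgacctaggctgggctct
Klk6, 2.8 kb upstream, chr7:43821645-43821685: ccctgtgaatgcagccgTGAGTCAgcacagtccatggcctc
Casp14, 1.2 kb upstream, chr10:78719465-78719505: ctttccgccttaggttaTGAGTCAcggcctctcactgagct
Casp14, 5.8 kb upstream, chr10:78724136-78724176: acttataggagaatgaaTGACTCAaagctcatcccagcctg
St14, 12.9 kb downstream of the start, chr9:31119112-31119152: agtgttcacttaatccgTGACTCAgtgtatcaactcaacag
The St14 match lay 156 bp from the summit and therefore outside the 100 bp that were counted. The 201 bases around that summit, in an intron of St14, held no match.
St14 summit, chr9:31118876-31119076: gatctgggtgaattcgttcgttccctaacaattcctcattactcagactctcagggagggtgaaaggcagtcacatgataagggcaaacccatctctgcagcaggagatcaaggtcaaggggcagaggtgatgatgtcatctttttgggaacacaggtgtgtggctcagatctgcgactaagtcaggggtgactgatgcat
The Klk5 promoter, the region with the next lowest p, had 63.0% G and C in the 192 bases that ran from 100 bp before its summit to the start of the gene record, and no AP-1 match. The TSS from which distances are given here is that of the basic transcript set, which begins further downstream.
Klk5 promoter, chr7:43841779-43841970: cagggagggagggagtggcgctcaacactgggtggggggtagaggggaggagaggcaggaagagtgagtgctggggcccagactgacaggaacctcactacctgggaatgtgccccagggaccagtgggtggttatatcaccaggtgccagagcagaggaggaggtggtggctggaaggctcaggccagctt

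A second word, CCACACCC, which KLF factors are known to bind, stood within 100 bp of the summit in 8 of the 45 regions (17.8%), against 5.84% of all regions. Among regions no more than 2 kb from an annotated transcription start site (TSS) the shares were 5 of 23 (21.7%) and 4.85%. The matches at the Casp14 start and in an St14 intron are shown because these are named regions of non-kallikrein members.
Casp14 start, chr10:78718335-78718376: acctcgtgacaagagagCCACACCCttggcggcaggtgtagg
St14, 23.0 kb downstream of the start, chr9:31108920-31108961: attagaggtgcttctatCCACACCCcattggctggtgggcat
The core of the CTCF motif occurred within 100 bp of the summit in 1 member region (2.22%), against 4.62% of all regions. The words TGACGTCA (CREB), AACCGGTT (GRHL) and TTGCGCAA (C/EBP) occurred in none, and in 0.772%, 0.242% and 0.161% of all regions. These matches describe the letters in a window and were compared with no test.

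The deposited lists held 69927 (WT 1), 54856 (WT 2), 69583 (Mapk8-KO 1) and 49856 (Mapk8-KO 2) peaks. The quantity compared below is the summit pileup, the number of fragments covering a peak's summit, which was solved from the authors' fold enrichment and −log10 p. From regions called in all 4 libraries, the depths relative to WT 1 were 0.694 (WT 2), 1.1 (Mapk8-KO 1) and 0.612 (Mapk8-KO 2), so replicate 2 was the shallower library of each genotype. Scaled pileup is the pileup divided by this relative depth, and within-list percentile is the rank of a peak's fold enrichment in its own library, where 100 is the strongest. Fewer cells with an open site and less opening per cell cannot be told apart in such bulk libraries. Markers fixed for the cell types gave peaks at the promoters of 6, 5, 6 and 4 of 6 basal keratinocyte genes in WT 1, WT 2, Mapk8-KO 1 and Mapk8-KO 2. Among the 4 granular genes Lor and Ivl had promoter peaks and Flg and Krt2 had none, with summed scaled pileups of 83.6 to 101 in WT and 109 to 160 in Mapk8-KO. None of the 4 leukocyte genes had a promoter peak. All 3 melanocyte genes, 2 of 3 fibroblast genes and 1 of 3 T cell genes had one in every library, and of 3 endothelial genes 1 or 2 did. The melanocyte sum was 138 to 141 in WT and 153 to 196 in Mapk8-KO, and its part in the results was not tested. The promoter of Krt14 had scaled pileups of 38 and 24.5 in WT and of 181 and 178 in Mapk8-KO. The Cre transgene, named KRT14-cre in the methods, has a keratin 14 promoter of its own. Mapk8 itself kept its promoter region in every library, at scaled pileups of 96, 105, 98.9 and 147, but an open promoter does not check the deletion.

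Open chromatin was found within 10 kb of every one of the 10 genes in every library, and most regions were shared by WT and Mapk8-KO. Of the 45 regions, 26 (57.8%) were called in all 4 libraries, against 48.6% of all regions, 6 in 3 libraries, 9 in 2 and 4 in 1. Regions within 2 kb of a TSS made up 23 of the 45 (51.1%, against 26.7%). WT 1, WT 2, Mapk8-KO 1 and Mapk8-KO 2 had 41, 34, 40 and 29 of them called, or 91.1%, 75.6%, 88.9% and 64.4%, against 83.8%, 65.2%, 83.2% and 59.1% of all regions. As over all regions, the deeper library of each genotype had more calls than the shallower one, and the ranges of the groups overlapped. The mean was 37.5 ± 4.95 (SD, n = 2) in WT and 34.5 ± 7.78 (n = 2) in Mapk8-KO, a difference of 3 regions that was within the spread (two-sided exact permutation test, p = 0.667, where 0.33 is the smallest p that 2 against 2 libraries allow). This difference turned to −0.5 without WT 1 and to −2.5 without Mapk8-KO 2.

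**Figure D1:**
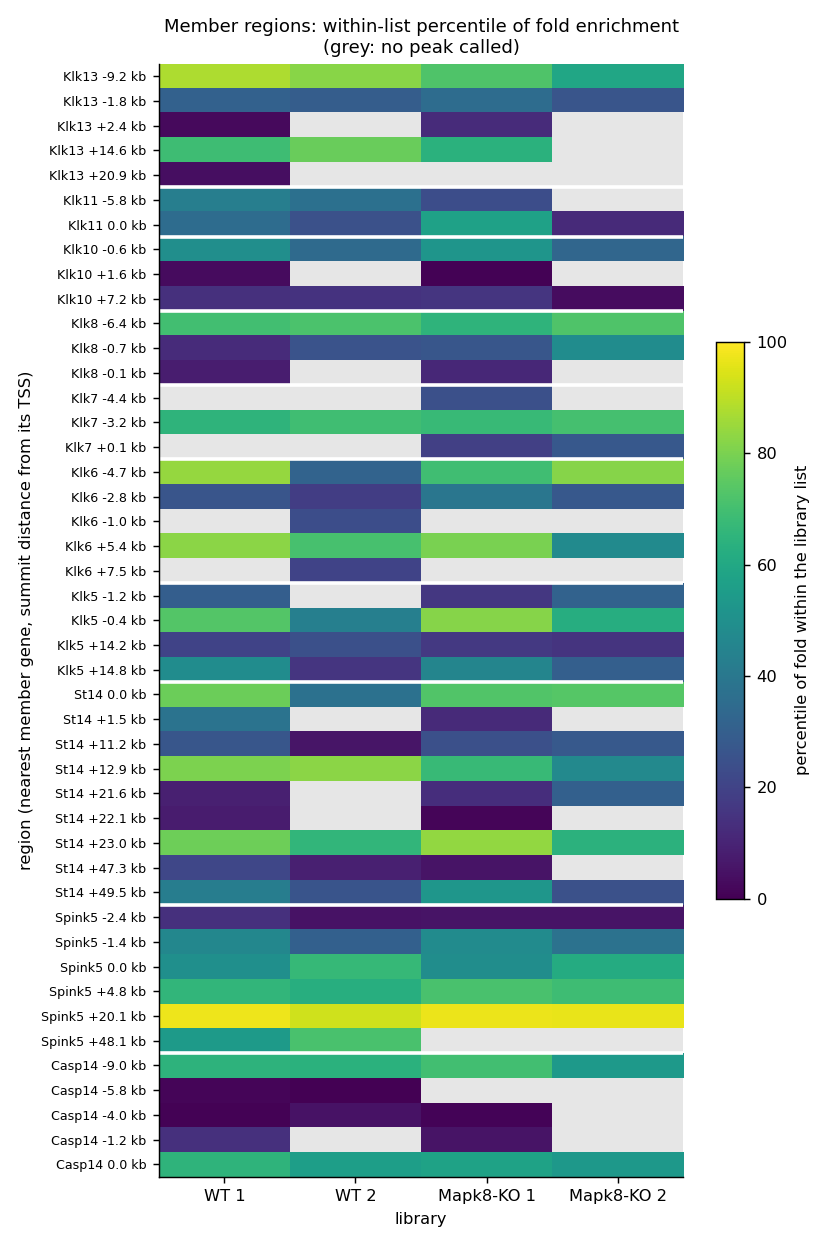
Within-list percentile of fold enrichment (colour, 0 to 100) of each of the 45 regions in each of the 4 libraries, with grey where no peak was called. Rows are named by the nearest listed gene and the distance of the summit from its transcription start; 26 rows are coloured in all 4 libraries, and the Spink5 region 20.1 kb inside the gene is the brightest, at 92.6 to 97.4.

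The kallikrein cluster on chromosome 7 was dense in open regions. The span from 10 kb before Klk13 to 10 kb after Klk5 covered 159 kb and held 26 regions, 25 of them assigned to a listed kallikrein, or 16.4 regions per 100 kb against 3.03 over the whole genome. Called regions numbered 22 and 18 in the WT libraries and 23 and 16 in the Mapk8-KO libraries, or 84.6%, 69.2%, 88.5% and 61.5% in the same order of libraries, and so followed the shares over all regions given above. The mean was 20 ± 2.83 in WT and 19.5 ± 4.95 in Mapk8-KO (n = 2 each), which did not exceed the spread (exact permutation p = 1). The gap of 0.5 regions became −1.5 without WT 1 and −3 without Mapk8-KO 2.

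**Figure D2:**
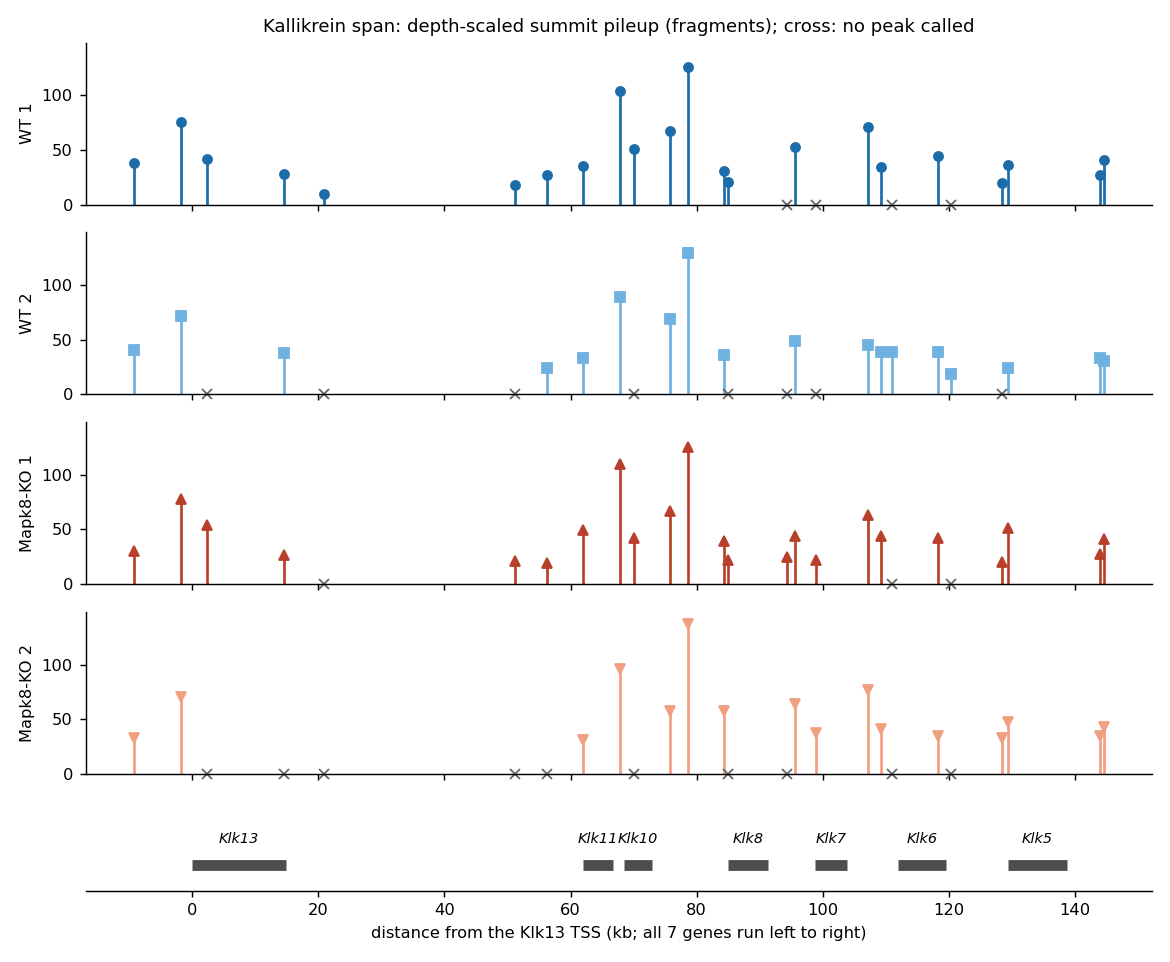
Scaled summit pileup (fragments) of the 26 regions of the kallikrein span in the 4 libraries, by distance from the Klk13 transcription start in kb, with crosses where no peak was called and the 7 gene bodies below. The 2 tallest regions in every library lie between Klk11 and Klk8, at scaled pileups of 89.4 to 137. The summit of the taller one lies within 2 kb of the transcription start of Klk9, a kallikrein outside the list.

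By pileup the strongest site of the span lay between Klk10 and Klk8, 6.4 kb upstream of the Klk8 TSS (chr7:43790864-43792037). The annotated TSS nearest to its summit, and within 2 kb of it, was that of Klk9, a kallikrein outside the list. The site is therefore a promoter region of Klk9 by the 2 kb limit, and its assignment to Klk8 and Klk10 rests on the flanks. It carries the third AP-1 match printed above. Its summit pileups were 126 (WT 1), 90 (WT 2), 138 (Mapk8-KO 1) and 84 (Mapk8-KO 2) fragments. Scaled for depth these were 126, 130, 125 and 137, and the groups overlapped. The difference in log2 pileup between Mapk8-KO and WT was 0.04 (SE 0.17, limma adjusted p = 0.965). This region had the highest mean fold enrichment of both Klk8 and Klk10, at 9.38, but by that measure the Klk13 site 9.2 kb upstream (10.4), the Klk6 site 5.4 kb downstream (9.84) and the site between Klk7 and Klk6 (9.56) were higher in the span.

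At Klk10, a kallikrein whose function in skin is less well known, the promoter region (chr7:43780311-43781979) had pileups of 104, 62, 121 and 59 in the order WT 1, WT 2, Mapk8-KO 1, Mapk8-KO 2, which is kept from here on. Its scaled values of 104, 89.4, 110 and 96.4 overlapped between genotypes. The other region within 2 kb of the Klk10 TSS was called only in the 2 deeper libraries, at 51 fragments in WT 1 and 46 in Mapk8-KO 1. Klk11, a trypsin-like kallikrein, had a region across its TSS (chr7:43774436-43775631) with 35, 23, 55 and 19 fragments. There Mapk8-KO 1 was highest and Mapk8-KO 2 lowest of the 4 libraries after scaling, at 49.9 and 31.0.

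Klk8, or neuropsin, is a trypsin-like kallikrein of the stratum corneum. The region 0.7 kb upstream of its TSS (chr7:43796391-43797196) had pileups of 31, 25, 43 and 35 and scaled pileups of 31, 36.0, 39.0 and 57.2. Both Mapk8-KO libraries were above both WT libraries, with a log2 difference of 0.50 (SE 0.26) that did not pass (limma adjusted p = 0.472). A second region at the Klk8 start was called only in the deeper libraries, at 21 and 24 fragments.

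Klk7 encodes the chymotrypsin-like enzyme of the stratum corneum and Klk5 the trypsin-like enzyme that activates it. At the Klk7 start, a region reaching into an exon (chr7:43811242-43811471) was called in both Mapk8-KO libraries, with 24 and 23 fragments (percentiles 18.8 and 27.7), and in neither WT library. It was the only one of the 45 regions called in both Mapk8-KO and in no WT library, a pattern that 1.65% of all regions showed. Exact Poisson 95% intervals, which here and below cover counting error only, were 15.4 to 35.7 and 14.6 to 34.5 fragments. At the mean scaled pileup of the calling libraries it would have reached the weakest −log10 p in both WT lists, but those values were selected for having been called. With lists cut to equal length it was no longer called in both Mapk8-KO libraries and neither WT library. By fold enrichment the strongest region of Klk7 lay downstream, 8.5 kb from its TSS and 4.7 kb upstream of Klk6 (chr7:43819594-43819985). Its pileups were 71, 31, 70 and 47, and WT 2 stood apart at a scaled value of 44.7 beside 71, 63.5 and 76.8.

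The Klk5 promoter (chr7:43841695-43842253, summit 0.4 kb upstream, sequence above) had pileups of 36, 17, 57 and 29 fragments. After scaling, 36 and 24.5 in WT lay below 51.7 and 47.4 in Mapk8-KO, so the groups did not overlap. The difference was 0.74 log2 (SE 0.27, 95% interval 0.21 to 1.26) and did not pass (limma unadjusted p = 0.00642, adjusted p = 0.217). It was 0.46 without WT 2 and 0.26 on fold enrichment. It was the member region with the largest difference upward, and its mean fold enrichment was the highest at Klk5. The local background, the fragment level that the peak caller expects around a site, was also higher there in Mapk8-KO, at scaled values of 3.77 and 4.11 against 2.74 and 2.21. A limma fit of log2 local background, added after the data had been seen, gave 0.65 (SE 0.17, adjusted p = 0.0161), while 1.58% of all regions passed that fit in either direction and 0.558% upward. Peaks were called without a control, so the background comes from the same library's fragments. It is therefore not independent of the pileup at a region picked for its difference. The WT 2 value equalled the lowest that library's list holds, which 24% of its regions share, so it is a floor and not a measurement of this site. A second region 1.2 kb upstream of Klk5 was called in WT 1, Mapk8-KO 1 and Mapk8-KO 2, at 20, 22 and 20 fragments.

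Klk6 and Klk13 are further trypsin-like members. The only region within 2 kb of a Klk6 TSS was called in WT 2 alone, at 27 fragments. By fold enrichment its strongest region lay 5.4 kb downstream of the TSS (chr7:43830139-43830940), with 44, 27, 46 and 21 fragments and overlapping scaled values, whereas the region 4.7 kb upstream given under Klk7 had more fragments in each library. The region 2.8 kb upstream of Klk6 had scaled pileups of 34 and 38.9 in WT and of 44.5 and 40.8 in Mapk8-KO, which did not overlap, but its log2 difference of 0.23 (SE 0.26) did not pass (limma adjusted p = 0.795).

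Klk13 had its promoter region 1.8 kb upstream of the TSS (chr7:43710106-43711648), at pileups of 76, 50, 86 and 43. Its scaled values of 76, 72.1, 78.0 and 70.2 overlapped between genotypes, with a log2 difference of 0.00 (SE 0.20). The site 9.2 kb upstream (chr7:43703003-43703509), with an AP-1 match 16 bp from its summit, was the strongest of Klk13 by fold enrichment. It had 38, 28, 33 and 20 fragments, and scaled values of 38 and 40.4 in WT lay above 29.9 and 32.7 in Mapk8-KO. The log2 difference of −0.32 (SE 0.28) did not pass (limma adjusted p = 0.707). The local background of this site stood at the lowest value that each library's list holds, so its fold enrichment and percentiles rest on a floor.

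The 1 member region that passed the test between genotypes lay in St14. It was an intronic site 12.9 kb downstream of the TSS on the minus strand (chr9:31118824-31119286, shown above), with 78 and 57 fragments in WT and 55 and 25 in Mapk8-KO. Scaled pileups were 78 and 82.1 in WT (mean 80.1 ± 2.93) and 49.9 and 40.8 in Mapk8-KO (45.4 ± 6.42), and the groups did not overlap. Pileup was 1.77-fold lower in Mapk8-KO (log2 difference −0.83, SE 0.22, limma adjusted p = 0.0413 over 40159 regions). At this threshold 0.608% of all regions passed, 0.498% lower in Mapk8-KO and 0.11% higher, and of the 26 member regions 1 was lower and 0 were higher. At an unadjusted p under 0.05 there were 2 of 26 member regions, against 11.3% of all regions.

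The local background there had scaled values of 6.21 and 5.85 in WT and of 4.74 and 4.30 in Mapk8-KO, which did not overlap, with a log2 difference of −0.45 (SE 0.15) that did not pass in the added fit (limma adjusted p = 0.114). On fold enrichment, which divides by this background, the difference was −0.44. The part of the background in the result was not tested further.

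The direction at this St14 site was kept in all 10 alternatives, but the call was not. The log2 difference ranged from −0.97 to −0.68 on pileup and was −0.44 on fold enrichment. The adjusted p was 0.0659 when libraries were centred on the median ratio instead of on their medians, a centring chosen after the data had been seen, 0.129 with quantile normalisation and 0.675 on fold enrichment. Without WT 1, WT 2 and Mapk8-KO 2 it was 0.394, 0.710 and 0.561, and without Mapk8-KO 1 it was 0.00488.

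The same site was the only member region ranked higher in one genotype by at least 10 percentile points. Its percentiles were 80.3 and 82.5 in WT and 67.6 and 47.1 in Mapk8-KO, a gap of 12.7 points. Of all regions called in all 4 libraries, 2.65% were ranked higher in WT by this rule and 3.78% in Mapk8-KO, where no member region was. Just outside the threshold was the Klk13 site 9.2 kb upstream, with 87.7 and 82.3 in WT and 72.3 and 59.1 in Mapk8-KO.

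**Figure D3:**
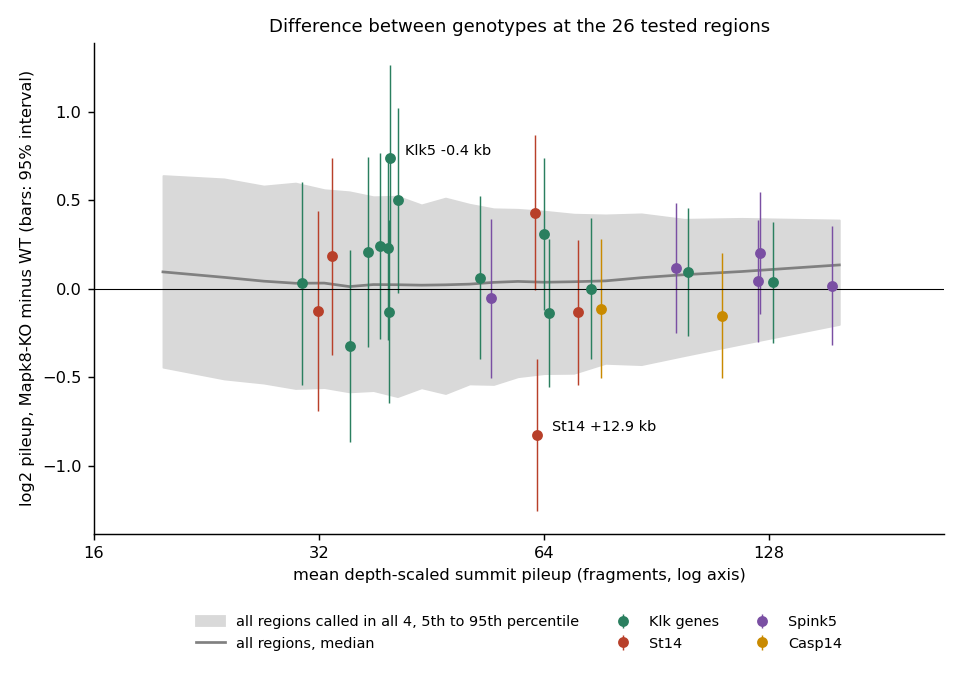
Log2 difference in summit pileup, Mapk8-KO minus WT, with its 95% interval (y axis) by mean scaled pileup (x axis, log scale) for the 26 tested regions, coloured by gene, over the 5th to 95th percentile of all regions called in all 4 libraries (grey). The St14 region at −0.83 lies below the grey band and the Klk5 promoter at 0.74 above it, and the interval of every other region includes 0.

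The other St14 regions gave a mixed picture. The promoter, 16 bp from the TSS (chr9:31131325-31132010), had 72, 26, 75 and 44 fragments and scaled values of 72, 37.5, 68.1 and 71.9. WT 2 alone was low, and the log2 difference of 0.43 (SE 0.22, limma adjusted p = 0.459) became −0.04 without that library. A second promoter region was called in the deeper libraries only, at 43 and 32 fragments. The strongest St14 region by fold enrichment, 23.0 kb inside the gene (chr9:31108542-31109055), had 89, 42, 84 and 36 fragments, with overlapping scaled values and a log2 difference of −0.13 (SE 0.21).

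Spink5, on chromosome 18, held the member region with the most fragments, its promoter, and the one with the highest fold enrichment, in an intron. The promoter had pileups of 136, 121, 164 and 100, or 136, 174, 149 and 163 after scaling, and the genotypes overlapped (log2 difference 0.02, SE 0.17). An intronic site 20.1 kb from the TSS had 129, 80, 142 and 75 fragments, and its percentiles of 97.4, 92.6, 97.0 and 96.6 were the highest of any member region in each library. Its log2 difference was 0.04 (SE 0.18), and it holds an AP-1 match within 100 bp of the summit. The region 1.4 kb upstream had 98, 60, 118 and 57 fragments, with overlapping scaled values. A region 4.8 kb inside the gene had scaled pileups of 114 and 118 in WT and of 138 and 129 in Mapk8-KO, which did not overlap, with a log2 difference of 0.20 (SE 0.18) that did not pass (limma adjusted p = 0.713).

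Far inside Spink5, 48.1 kb from its TSS, an intronic region was called in both WT libraries, at 23 and 24 fragments (percentiles 54.6 and 71.3), and in neither Mapk8-KO library. Together with a Casp14 region it made 2 of 45 regions called in both WT and in no Mapk8-KO library, against 2.17% of all regions. The Poisson intervals were 14.6 to 34.5 and 15.4 to 35.7 fragments. At the WT scaled level it would have reached the weakest −log10 p of both Mapk8-KO lists, with the same reservation as at Klk7. Its local background stood at the lowest value of both WT lists, so its percentiles rest on a floor.

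Casp14 was open at its start and at several sites upstream. The promoter (chr10:78717389-78718656) had 114, 83, 118 and 63 fragments. Scaled values of 114 and 120 in WT lay above 107 and 103 in Mapk8-KO without overlap, by a log2 difference of −0.15 (SE 0.18) that did not pass (limma adjusted p = 0.797). The site 9.0 kb upstream, the strongest by fold enrichment (chr10:78727049-78727561), had 76, 57, 88 and 41 fragments, with overlapping scaled values. The region 1.2 kb upstream, with an AP-1 match 13 bp from its summit, was called in the deeper libraries only, at 62 and 57 fragments. The region 5.8 kb upstream (chr10:78723949-78724182), also with an AP-1 match, was called in WT 1 and WT 2 and in neither Mapk8-KO library. It had 32 and 20 fragments at percentiles of 1.5 and 0.1, and so was among the weakest peaks of both WT lists by fold enrichment.

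**Figure D4:**
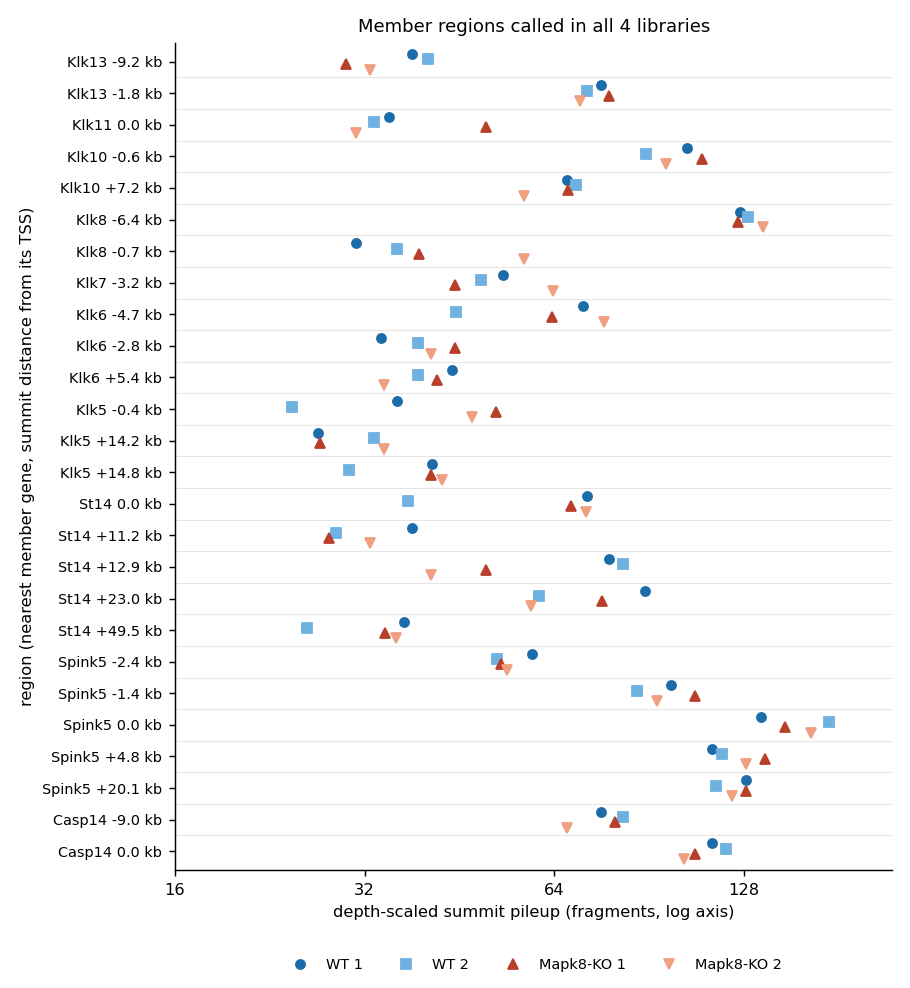
Scaled summit pileup (fragments, log axis) of the 26 regions called in all 4 libraries, 1 row per region and 1 symbol per library (blue WT, red Mapk8-KO). In 3 rows both WT symbols lie to the right of both Mapk8-KO symbols, in 4 rows the reverse holds, and in 19 rows the genotypes overlap.

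Across the 26 regions called in all 4 libraries, both WT values were above both Mapk8-KO values in 3 (the Casp14 promoter, Klk13 9.2 kb upstream and the St14 intronic site), and the reverse held in 4 (the Klk5 promoter, Klk8 0.7 kb upstream, Klk6 2.8 kb upstream and Spink5 4.8 kb inside). Of all regions, 16.9% showed the first pattern and 24.6% the second. The median log2 difference of the 26 was 0.04, against 0.05 for all regions, and −0.01 against 0.01 with the other centring. The 95% interval of a single region had a median half-width of 0.44 log2 with 2 libraries per group, which belongs to an unadjusted p of 0.05. After adjustment larger differences also failed, such as 0.74 at the Klk5 promoter, and the 1 that passed was −0.83.

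The local background set many member regions apart from the rest. In 14 of the 45 (31.1%) the scaled local background exceeded the 90th percentile of all regions, which 10.0% of regions exceed by construction. These were 4 of 6 Spink5 regions, 4 of 5 Casp14 regions and 6 of the 25 kallikrein regions, around the Klk13 start and from Klk10 to Klk8, whereas no St14 region was among them. Fold enrichment divides by this background. By summit pileup the median member percentile was 62.1, 49.7, 66.6 and 66.6, and by fold enrichment it was 42.3, 33.2, 42.4 and 47.1. The region 4.0 kb upstream of Casp14 is an example of the gap, with 42, 47 and 51 fragments in WT 1, WT 2 and Mapk8-KO 1 at fold percentiles of 0.4, 4.7 and 1.2.

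**Figure D5:**
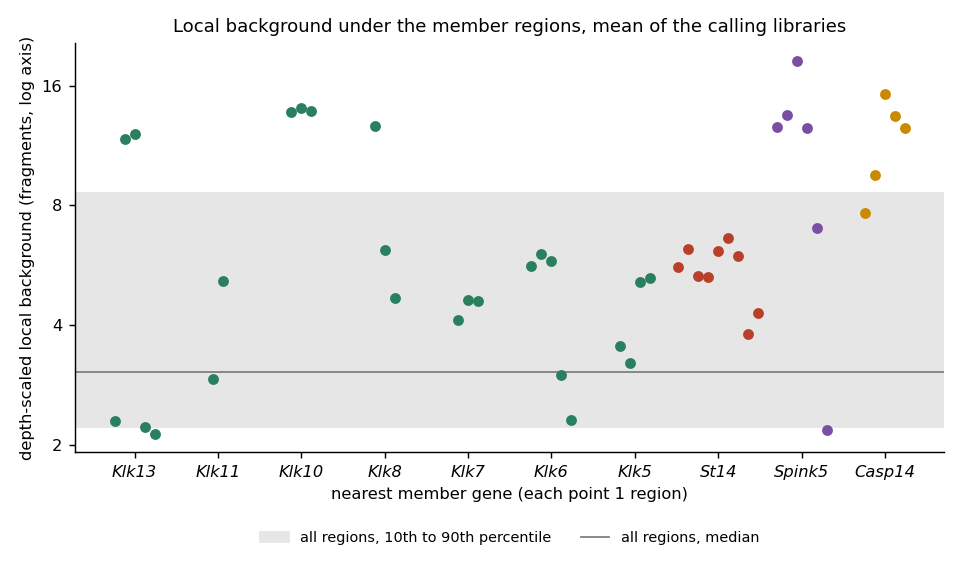
Scaled local background (fragments, log axis, mean of the calling libraries) of each member region, by nearest gene, over the 10th to 90th percentile of all regions (grey, 2.21 to 8.60) and their median of 3.04. Of the Spink5 points 4 of 6 and of the Casp14 points 4 of 5 lie above the grey band, and all St14 points lie within it.

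A wider list of genes of desquamation and the cornified layer was set beside the members. It held 31 genes: other inhibitors, activating proteases, substrates such as corneodesmosin (Cdsn) and desmoglein 1, a receptor, lipid enzymes and other kallikreins of the cluster. Sts could not be placed in the annotation used, and Spink6, Spink12, Flg2, Klk1 and Klk15 had no region. The others had 112 regions, of which 103 were not member regions and 62 were called in all 4 libraries. None of the 62 passed limma in either direction, with 8 at an unadjusted p under 0.05 (12.9%, against 11.3% of all regions). Their median log2 difference was 0.06. Called regions numbered 103, 74, 92 and 72, again lower in the shallower library of each genotype. These were 92.0%, 66.1%, 82.1% and 64.3%, against 83.8%, 65.2%, 83.2% and 59.1% of all regions. Of the 112 regions, 1 was called in both Mapk8-KO libraries, at 25 and 13 fragments, and in neither WT library, against 1.65% of all regions. It lay near Ctsl, which encodes the lysosomal protease cathepsin L (chr13:64376385-64376737). None showed the reverse, against 2.17% of all regions.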

How the data were processed

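Keratinocytes of 2 WT and 2 Mapk8-KO samples were measured by ATAC-seq. The authors mapped reads to mm10 with Bowtie2, filtered alignments and called peaks in each library separately with MACS2 in paired-fragment mode, at a stated q of 0.05 and without a control. The highest q in the deposited lists was 0.0093 to 0.0097, so calls rest on a stricter limit than the stated one. A Tn5 shift is not given in the sources used here. The submitters' processing notes also name Trimmomatic 0.36, STAR 2.5.3, Picard and SAMtools. Each deposited list gives a fold enrichment (a ratio of summit pileup to local background), −log10 p and −log10 q values, a score derived from q and the summit's position. Depth in reads is unknown.

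From these the summit pileup and the local background were solved together, and at least 99.996% of peaks gave a whole pileup to within 0.05. The solver and the limma fit were tested on simulated data. The log2 pileup of 40159 regions called in all 4 libraries, centred on each library's median, was fitted with limma 3.58.1 (R 4.3.3) using a trend in the variance and p-values adjusted after Benjamini-Hochberg at 0.05. The study tested reads per region, for which counts were not used here. Group means were compared by exact permutation over 6 label assignments. Genes and TSSs came from GENCODE vM21 basic, and sequences from RefSeq GRCm38.p6, the assembly mm10 denotes. No peak ended past a chromosome end.

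Named with values were regions within 2 kb of a listed gene's TSS, each gene's region of highest mean fold enrichment, regions called in one genotype only, ranked apart by 10 points or past limma, and the 3 lowest limma p-values. Other regions that are named were chosen after their values were seen. The members and lists were chosen with earlier results of these data known. Python 3.11.15 with numpy 2.4.6, scipy 1.17.1 and pandas 2.3.3 was used. Alternatives varied the flank, overlap, q, list length, rank gap and measure, motif window, centring, normalisation, trend, replicate block and each library.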

Additional observations from a re-analysis of the deposited data

How the results depend on the processing

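Of 135 alternative values for 15 results, 92 kept their side of the threshold or moved by less than the limit set for them (1 SD, or 1.5 times for counts). These include small values that changed sign or reached 0: the median log2 difference of member regions, 0.039, was −0.0065 with quantile normalisation, −0.0088 with median-ratio centring and −0.031 without WT 2, and the difference in called regions was 0 without flanks for the members and 0 at a q of 0.001 for the span. The number of member regions lower in Mapk8-KO by limma was 1 and became 0 on log2 fold enrichment, with quantile normalisation, without the variance trend, with median-ratio centring and with regions called in at least 2 libraries, and it was 0 to 1 when 1 library was left out. The St14 site then had adjusted p-values from 0.00488 (without Mapk8-KO 1) to 0.710 (without WT 2), 0.233 without the trend and 0.670 with regions called in at least 2 libraries. For member regions higher in Mapk8-KO the count was 0 in every fit of pileup or fold enrichment to all 4 libraries. In the added fit of local background it was 1, the Klk5 promoter.
Leaving out 1 library moved the WT minus Mapk8-KO difference in called member regions from −2.5 (without Mapk8-KO 2) to 8.5 (without Mapk8-KO 1). That of the kallikrein span went from −3 to 4. Regions called only in WT numbered 2 to 6 and only in Mapk8-KO 1 to 3. Of 26 to 30 regions, 1 to 6 ranked higher for WT, against 5.37% to 20.6% of all regions. Higher for Mapk8-KO were 1 to 5, against 7.91% to 17.6%. The highest count and the highest share came together, without Mapk8-KO 1 for WT and without WT 1 for Mapk8-KO. Without flanks the regions called only in WT numbered 1 and the AP-1 share was 14.3%; with lists of equal length those called only in Mapk8-KO numbered 0. Regions ranked higher in WT numbered 2 with a gap of 5 points, 0 with a gap of 20 and 2 with percentiles among shared regions. The shares of all regions were 5.72%, 0.515% and 4.65%. Those ranked higher in Mapk8-KO numbered 1 by −log10 p and 1 by pileup percentile, against 3.42% and 2.71% of all regions. The St14 promoter difference ranged from −0.042 (reversed, without WT 2) to 0.90 (without WT 1). In the wider list, 1 region, near A2ml1, was lower without Mapk8-KO 1. The cause of these shifts was not tested.
Replicate numbers pair the libraries by number only: the replicate difference in WT and in Mapk8-KO correlated at r = 0.039 across regions. With the replicate block 1 member region was lower in Mapk8-KO (St14, limma adjusted p = 0.0264). Of the member regions 2 ranked higher for WT and 1 for Mapk8-KO, against 5.77% and 6.86% of all regions. The difference in calls was 0.5 for the span and 3 for member regions, where the 2 pairs gave 1 and 5. For the members the exact permutation p was 0.5, the smallest that 2 pairs allow.
Of 45 member regions, 16 had no call in Mapk8-KO 2 and 11 in WT 2, against 4 in WT 1 and 5 in Mapk8-KO 1. At the mean scaled level of the libraries that called them, 15 of the 16 and 10 of the 11 would have reached the weakest −log10 p of the list, a level selected for having been called.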
